A study of Mus musculus with 24 samples.

Results

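The response of mouse embryonic stem cells (mESCs) carrying a hairpin against Cdk8 to 24 h of retinoic acid (RA) was measured as the difference between 3 libraries labelled 24hRA_shCdk8 and 3 labelled mESCs_shCdk8, across all genes. These 6 of the series' 24 libraries were chosen by their labels, and no measured value entered the choice. All cells are E14TG2a, an established mESC line of strain 129/Ola grown without feeder cells in serum and leukaemia inhibitory factor (LIF), the cytokine that holds mESCs in the naive pluripotent state. The RA groups were kept for 24 h in 1e-06 M all-trans RA with LIF taken away. No group lost LIF without receiving RA, so effects of RA and of LIF loss cannot be told apart. The same comparison was made in cells transfected with shNMC, the non-mammalian control hairpin, and with shMed12, 3 libraries per state in each. Untransfected and shRing1b mESCs entered the gene filter, the scaling and the estimate of the spread, but no comparison. The labels state neither how many hairpins or clones were used nor whether replicates are separate cultures, so p-values may measure technical spread only. In such bulk RNA a change in every cell and a change in the share of cells that express a gene cannot be told apart.

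RA binds nuclear receptors of the RAR family, which sit on DNA as pairs with retinoid X receptors and turn from repressors into activators of nearby genes. Direct targets include the genes of RA breakdown and binding, Rarb itself and the Hox genes, whose 4 clusters pattern the body axis and open progressively from the anterior (low-numbered) end. Cdk8 is a kinase that, with cyclin C, Med12 and Med13, forms the detachable kinase module of Mediator, the complex that links transcription factors with RNA polymerase II.

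Gene counts were 37.8 to 57.3 M in the 6 libraries, so that 3 reads stand for 0.0523 to 0.0793 CPM (read counts scaled to library size). Cdk8 stood at 15.2, 12.6 and 10.7 CPM in the mESC libraries and at 12.4, 9.04 and 8.21 CPM in the RA libraries with shCdk8. With shNMC it stood at 54.1, 56.1 and 50.1 CPM and at 48.1, 46.0 and 42.6 CPM. All shCdk8 libraries lay below all shNMC libraries in both states, as the label says. The shCdk8 libraries of the 2 states overlapped, and the fall of Cdk8 with RA (log2 -0.37, SE 0.15, edgeR adjusted p = 0.045) lost its call in 8 of 13 alternatives.

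About as many genes rose as fell, but the rises were larger. Of 16280 genes tested, 4339 rose (26.7%) and 4083 fell (25.1%), 51.7% in all. At least 2-fold changes were 2602 rises (16.0% of genes tested) and 704 falls (4.32%). At least 4-fold changes were 1012 rises and 151 falls, and at least 16-fold changes were 127 rises and 11 falls. The test was edgeR's quasi-likelihood test, with an adjusted p (Benjamini-Hochberg) under 0.05 called. The 3 RA libraries lay wholly above the 3 mESC libraries for 34.8% of genes and wholly below for 31.9%. These shares are the background for every gene list below, since most genes were called in 1 direction or the other.

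The largest rises among genes at 5 CPM or more were mostly Hox genes. Besides 8 members of the HoxA and HoxB clusters they were Arg1 (arginase), Cyp26a1 (the main RA-degrading enzyme), Csn3 (kappa casein) and Ccrl1 (an atypical chemokine receptor). Csn3 stood at 0.110, 0.106 and 0.108 CPM in mESCs and at 16.5, 14.9 and 10.7 CPM after RA (log2 6.98, SE 0.38, edgeR adjusted p = 6.8e-12). Arg1 had 1 read in the 3 mESC libraries together and 1906 after RA, 1499 times the CPM (95% interval from counting error 269 to 59239). Arg1, Hoxb5 and Hoxb6 were the genes with at most 3 reads in all mESC libraries and at least 1 CPM in each RA library, and no gene showed the reverse. The largest falls included Foxd3 and Prdm14 (factors of the pluripotency network), Tdh (threonine dehydrogenase, on which mESC metabolism depends), Mycn, Inhbb (the activin beta B subunit) and Fgf17. Tdh stood at 310, 288 and 270 CPM in mESCs and at 9.08, 8.67 and 14 CPM after RA (log2 -4.78, SE 0.28, edgeR adjusted p = 1.8e-11). Foxd3 went from 18.1, 18.4 and 16.3 CPM to 0.364, 0.618 and 0.549 CPM (log2 -5.10, SE 0.39, edgeR adjusted p = 1.2e-09). Ly6g6e (log2 -4.09), Tgm3 (-4.0), Serpinb6c (-3.38) and Gna14 (-3.30) also fell.

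**Figure D1:**
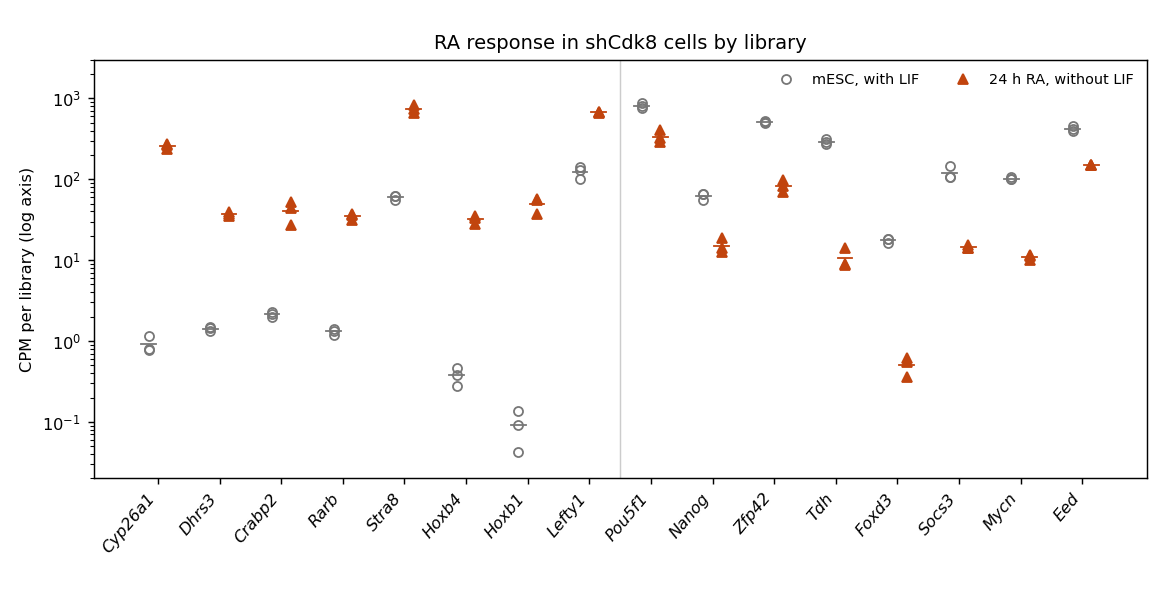
CPM in each shCdk8 library (log axis) for 8 genes that rose and 8 that fell; open grey circles are the 3 mESC libraries, filled triangles the 3 RA libraries, and short bars the means. The libraries of the 2 states do not overlap for any of the 16 genes, and Cyp26a1 moved from about 1 CPM to between 237 and 271 CPM.

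Genes of retinoid metabolism and binding rose more often than genes at large: 10 of 19 tested rose and 1 fell, with a median log2 change of 1.26 (0.01 over all genes). Cyp26a1 stood at 0.773, 1.15 and 0.794 CPM in mESCs and at 271, 263 and 237 CPM after RA (log2 8.14, SE 0.34, edgeR adjusted p = 2.4e-13). The second RA hydroxylase, Cyp26b1, rose by log2 4.34 (SE 0.29). Dhrs3, which turns retinal back into retinol, went from 1.44, 1.32 and 1.5 CPM to 39.5, 34.8 and 37.7 CPM (log2 4.71, SE 0.20). Among binding and uptake proteins, Crabp2, which carries RA to its receptors, went from 2.18, 1.98 and 2.27 CPM to 52.0, 43.9 and 27.2 CPM (log2 4.26, SE 0.31). The RA libraries of Crabp2 spread almost 2-fold, with replicate 3 the lowest. Stra6, the retinol uptake receptor, rose by 3.72, Lrat, which stores retinol as esters, by 3.63, the retinol-binding protein Rbp4 by 1.39, and the retinal reductase Rdh14 by 0.47, all as log2 changes. Aldh1a1, a retinal dehydrogenase, was called with 3 reads in the mESC libraries, too few for a fold. The member that fell was the broadly expressed alcohol dehydrogenase Adh5 (419, 383 and 362 CPM to 274, 241 and 247 CPM, log2 -0.61). The 8 members that did not pass, among them the synthesis enzymes Aldh1a2, Aldh1a3 and Rdh10, had log2 changes of -0.10 to 1.26, and Cyp26c1 had too few reads to be tested.

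Of 15 receptors and cofactors, 6 rose and 3 fell (median 0.24). Rarb, the receptor gene that is itself an RA target, stood at 1.19, 1.32 and 1.43 CPM in mESCs and at 37.2, 35.8 and 31.6 CPM after RA (log2 4.72, SE 0.20, edgeR adjusted p = 2.7e-13). Rarg went the other way, from 210, 198 and 215 CPM to 120, 110 and 146 CPM (log2 -0.73, SE 0.13, edgeR adjusted p = 7.2e-05). Rara and Rxra did not pass. Nrip1, a ligand-dependent corepressor, rose from 7.43, 9.32 and 11.2 CPM to 55.4, 68.4 and 75.1 CPM (log2 2.82, SE 0.24). The orphan receptor Nr2f1 rose by log2 3.70, Rxrg by 1.13 and Rxrb by 0.24. The corepressor Ncor1 fell by 0.54 and the coactivator Ncoa3 by 0.37 on the log2 scale. The calls of Rdh14, Rxrb and Ncoa3 were each lost in 3 of 13 alternatives.

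The promoters of Cyp26a1 and Rarb are shown because they carry the textbook form of RA response element, a direct repeat of 2 motifs of 6 bases with 5 bases between them. Sequences are from RefSeq on build GRCm38.p6, end at the base before the transcription start and run 5′ to 3′ on the gene's strand, with the element in capitals. That of Cyp26a1 is chr19:37697726-37697807 on the plus strand and holds AGTTCA and again AGTTCA on the opposite strand, 32 to 16 bases before the start. That of Rarb is chr14:16575477-16575579 on the minus strand and holds GGTTCA and then AGTTCA on the same strand, 53 to 37 bases before the start.
Cyp26a1: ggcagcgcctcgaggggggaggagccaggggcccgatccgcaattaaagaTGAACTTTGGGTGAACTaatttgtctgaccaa
Rarb: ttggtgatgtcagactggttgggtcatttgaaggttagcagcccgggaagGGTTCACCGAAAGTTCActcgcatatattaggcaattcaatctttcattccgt
Searched on both strands in 32851 RefSeq promoters (250 bases before to 50 after the start), the first pair of motifs, spaced so, was in 8 (0.0244%) and the second pair in 2 (0.00609%). Only the exact letters found in these promoters were searched, so the shares do not give the frequency of such elements in general. A match of letters is a description and not evidence of binding in these cells.

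Other genes known to answer RA rose in 15 of 20 cases and fell in 2 (median 2.70). Stra8, the RA-induced gatekeeper of meiosis, was already at 62.3, 61.2 and 55.6 CPM in mESCs and stood at 820, 736 and 662 CPM after RA (log2 3.63, SE 0.20, edgeR adjusted p = 7.5e-12). Zfp703, a transcriptional corepressor, went from 0.331, 0.617 and 0.451 CPM to 56.7, 55.4 and 46.6 CPM (log2 6.80, SE 0.34). Pbx2, a partner of Hox proteins on DNA, rose by log2 1.58 (SE 0.13). The caudal factors Cdx1 and Cdx2, which act upstream of posterior Hox genes, rose by 2.72 and 3.50, and the endoderm pioneer factor Foxa1 by 3.50. For each of these genes the libraries of the 2 states did not overlap.

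All members of the anterior and middle Hox groups that were tested rose, and posterior members were mixed. Of 38 tested, 32 rose, 1 fell and 5 did not pass (median log2 3.47); in 33 the RA libraries lay wholly above the mESC libraries. In paralogue groups 1 to 4 the count was 12 of 12 (median 6.10), in groups 5 to 8 it was 11 of 11 (median 4.70), and in groups 9 to 13 it was 9 of 15 with 1 fall (median 1.82). By cluster, HoxB rose in 10 of 10 (median 7.59), HoxA in 10 of 11 (5.77), HoxD in 8 of 9 (1.97) and HoxC in 4 of 8 (1.66). Hoxb1, the first gene of its cluster and a direct RA target, had 0.138, 0.0426 and 0.0903 CPM in mESCs and 55.5, 57.2 and 37.0 CPM after RA (log2 9.12, SE 0.42, edgeR adjusted p = 4.9e-13). Other anterior and middle members also rose strongly, Hoxa2, Hoxa3 and Hoxa5 by log2 6.89, 7.03 and 7.40 and Hoxb2, Hoxb3 and Hoxb8 by 9.75, 8.72 and 7.02. In the HoxC and HoxD clusters Hoxc4 and Hoxc5 rose by 3.83 and 4.70 and Hoxd1 and Hoxd13 by 1.76 and 1.17, the last the lowest of HoxD. The highest of HoxD was Hoxd3, with 2 reads in the mESC libraries together and 110 after RA, 43.3 times the CPM (interval from counting error 11.7 to 362). The posterior gene Hoxa9 went from 1 read to 166, 131 times the CPM (23.1 to 5187). Hoxb5 had 1 read in the 3 mESC libraries and 14.3, 15.8 and 12.6 CPM after RA, 1991 times the CPM (interval from counting error 357 to 78654). At the far end of that cluster Hoxb13 rose by log2 2.68, from 1.30, 1.68 and 1.16 CPM to 8.35, 7.69 and 10.4 CPM. The gene that fell was Hoxc12, from 0.331, 0.447 and 0.289 CPM to 0.0662, 0.0464 and 0 CPM, 7 reads in the 3 RA libraries together (log2 -3.08, SE 0.53, edgeR adjusted p = 5.5e-05). Hoxc11 was not tested. Replicate 3 was the lowest RA library for 30 of the 38 genes, and for 1673 of the 2602 genes that rose at least 2-fold (64.3%).

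**Figure D2:**
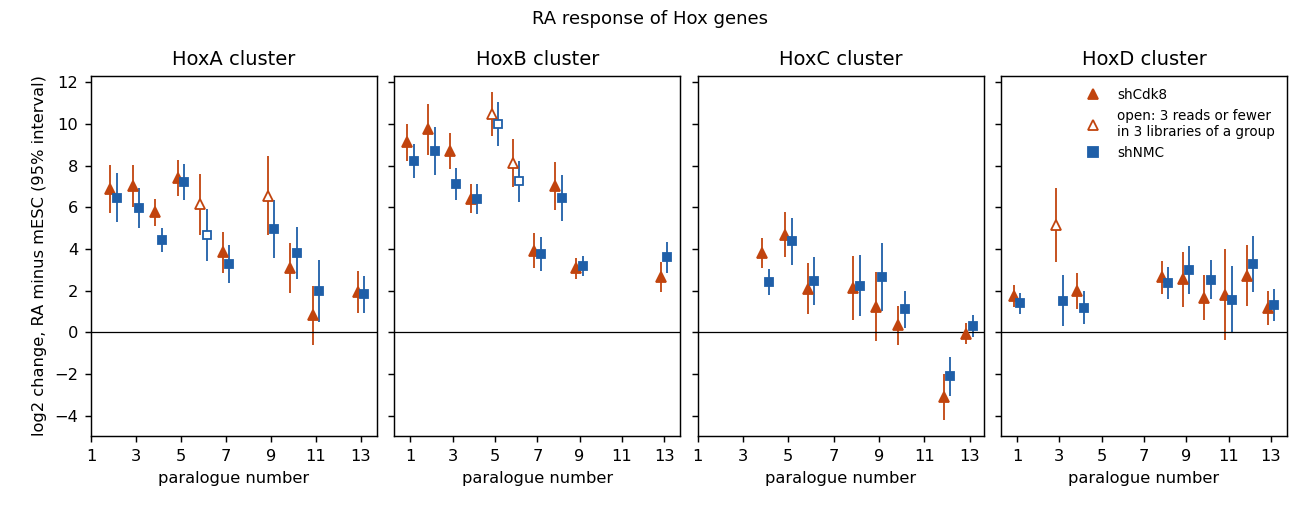
Log2 change with RA (edgeR, with 95% interval) against paralogue number in the 4 Hox clusters, for shCdk8 (triangles) and shNMC (squares) cells; open symbols mark genes with 3 reads or fewer in the 3 libraries of a group, whose fitted change depends on the prior count. In both lines Hoxa5 lies highest in HoxA and Hoxb5 in HoxB, and Hoxc12 lies below 0. For Hoxb3 the intervals of the lines barely overlap (7.86 to 9.57 with shCdk8 and 6.36 to 7.89 with shNMC). No difference between the lines was called for any Hox gene tested. The figure leaves out 1 tested gene.

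Pluripotency genes fell almost throughout. Of 33 tested, 30 fell, none rose and 3 (Tbx3, Lin28a and Pecam1) did not pass (median -1.80); in 32 the RA libraries lay wholly below the mESC libraries. Pou5f1 (Oct4) stood at 802, 768 and 866 CPM in mESCs and at 320, 289 and 402 CPM after RA (log2 -1.27, SE 0.12, edgeR adjusted p = 1.9e-08). Nanog went from 65.8, 66.2 and 55.3 CPM to 14.2, 12.7 and 18.5 CPM (log2 -2.05, SE 0.17), and Sox2 fell by 1.10 on the log2 scale. Among factors of the naive state, Zfp42 (Rex1) went from 524, 491 and 504 CPM to 82.2, 70.2 and 97.6 CPM (log2 -2.60, SE 0.12), and Prdm14 fell by 3.13 (SE 0.18). Klf2 and Klf4, which sustain naive pluripotency, fell by 1.75 (SE 0.14) and 2.21 (SE 0.13). Replicate 3 was the highest RA library for 22 of the 33 genes, the mirror of its place among the Hox genes. It held the same place in shNMC cells, the lowest RA library for 29 of 38 Hox genes and the highest for 21 of 33 pluripotency genes.

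The LIF and Stat3 pathway fell in 11 of 17 genes and rose in 3 (median -1.0). Socs3, the direct Stat3 target that dampens the pathway, went from 107, 108 and 148 CPM to 14.2, 14.2 and 15.6 CPM (log2 -3.04, SE 0.27, edgeR adjusted p = 9.2e-09). The LIF receptor genes Lifr and Il6st fell by 1.37 and 0.63, Stat3 by 1.0, and the Stat3 targets Pim3, Bcl3 and Tcfcp2l1 by 1.61, 1.64 and 1.90 on the log2 scale. Myc fell by 2.57 (SE 0.26) and its relative Mycn by 3.22 (SE 0.20), the latter from 106, 99.5 and 100 CPM to 11.2, 9.98 and 11.6 CPM. The genes that rose were the kinases Jak2 (log2 1.18), Pim1 (0.53) and Jak1 (0.38).

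Signalling genes were mixed. In the FGF and ERK feedback list 4 of 18 rose and 6 fell (22.2% and 33.3%, against 26.7% and 25.1% of all genes). Fgf4, the autocrine FGF of mESCs, went from 354, 364 and 331 CPM to 56.0, 49.9 and 80.0 CPM (log2 -2.50, SE 0.15, edgeR adjusted p = 3.4e-11). The feedback inhibitors Spry2 and Spry4 fell by 2.28 and 2.85, and the ETS factors Etv4 and Etv5 by 1.75 and 1.39 on the log2 scale. In the Nodal and BMP list 8 of 19 rose and 7 fell. The Nodal antagonist Lefty1 went from 142, 130 and 99.6 CPM to 686, 682 and 666 CPM (log2 2.46, SE 0.32). The Nodal co-receptor gene Tdgf1 fell by 3.08, the activin subunit gene Inhbb by 3.20 and the inhibitory Smad gene Smad7 by 1.32. Among Wnt targets 8 of 19 rose and 5 fell, with Wnt8a at log2 2.84 and Ccnd1 at -1.84. In the Notch list 3 of 17 rose (17.6%) and 4 fell (23.5%), no more than among all genes. Those that fell include the effector Rbpj (-0.93) and Hes1 (-1.02). Immediate early genes rose in 5 of 21 cases (Jun, 1.78) and fell in 8 (Nr4a1, -0.98; Junb, -1.49).

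Developmental transcription factors rose broadly. Of 75 such factors other than Hox that are known Polycomb targets in mESCs, 50 rose and 1 fell (median 1.53). Six2 went from 0.110, 0.106 and 0.108 CPM to 2.07, 2.41 and 1.69 CPM (log2 4.21, SE 0.43), and Lhx2 rose by 3.01. Neural genes rose in 9 of 21 cases and fell in 5: the neural crest factor Pax3 (4.95) and the Iroquois factors Irx3 (2.90) and Irx5 (3.08) rose, while Neurod1 fell from 12.5, 12.6 and 12.9 CPM to 1.54, 1.62 and 2.02 CPM (-2.88) and the neuronal gene Stmn2 fell by 1.54. Pax6 and Sox1 did not pass. Streak and mesoderm genes rose in 9 of 21 cases and fell in none, with Tbx5 at 3.70, Nkx2-5 at 3.30 and Wnt3 at 1.93. T (Brachyury) rose from 0.718, 0.489 and 0.542 CPM to 1.22, 1.22 and 1.69 CPM (log2 1.25, SE 0.47, edgeR adjusted p = 0.031), a call lost in 4 of 13 alternatives. Among primed-state genes 5 of 15 rose (Sox3 by 2.88, Sall2 by 2.57, Sox4 by 0.99) and 6 fell; the DNA methyltransferase gene Dnmt3a rose by 0.64 and Dnmt3b fell by 0.81.

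Few markers of extraembryonic endoderm, a lineage that RA can induce in stem cells, passed: 4 of 24 rose (Foxa2, Apob, Krt18 and Lrp2), none fell, and 20 did not pass. In 11 of the 24 the RA libraries lay wholly above the mESC libraries and in 4 wholly below, against 34.8% and 31.9% of all genes. Of the 20 that did not pass, 11 had libraries that did not overlap. The call of Lrp2 was lost in 5 of 13 alternatives, each leaving out 1 library. Gata6, the master factor of that lineage, had 10.4, 9.62 and 7.02 CPM in mESCs and 16.3, 16.1 and 13.4 CPM after RA, and Gata4 had 11.4, 11.2 and 9.66 CPM against 16.1, 16.0 and 12.5 CPM. For both the libraries did not overlap, yet the changes (log2 0.77, SE 0.44, and 0.47, SE 0.53) did not pass in the fit to all 24 libraries. Both passed in a fit to the compared libraries alone (edgeR adjusted p = 7.2e-04 for Gata6 and 0.0047 for Gata4) and in a fit to the 18 libraries without the untransfected and shRing1b mESCs. The summed CPM of the list was 2146 to 2226 in mESCs and 2096 to 2269 after RA. Trophectoderm markers rose in 7 of 14 cases and fell in 2, with Gata2 at 2.31, Dlx3 at 2.59 and Krt7 at 1.87, and Tead4 at -1.56; the placental hormone and spongiotrophoblast genes Prl3d1, Prl2c2 and Tpbpa had 0 reads. Of 16 fibroblast markers tested, 10 rose and 1 (Thy1, -1.46) fell; collagen genes led, with Col6a1 at 2.97, Col6a2 at 2.19 and Col1a1 at 2.23, and Pdgfrb at 2.01. The summed CPM of that list was 59.9 to 68.1 in mESCs and 147 to 160 after RA, while Fap had 0 reads and Dcn, Lum, Postn and S100a4 had under 10 in each state. Postn is among the 10 that rose, with 0 reads in the mESC libraries and 7 after RA, too few for a fold. For trophectoderm markers the sum went down, from 84.8 to 101 in mESCs to 75.8 to 81.5 after RA. For neural genes it also went down (487 to 555, then 291 to 299), and for streak and mesoderm genes it went up (22.4 to 23.4, then 38.45 to 40.4). Such sums follow the members with most reads. In the neural list Stmn2 had 34478 unscaled reads in mESCs and 15219 after RA. In the trophectoderm list Tcfap2c had 8339 and 7390, and Tead4 2981 and 1231. The median log2 change was above 0 in both lists (neural 0.68, trophectoderm 0.93). The part of other cell types in these changes was not tested.

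**Figure D3:**
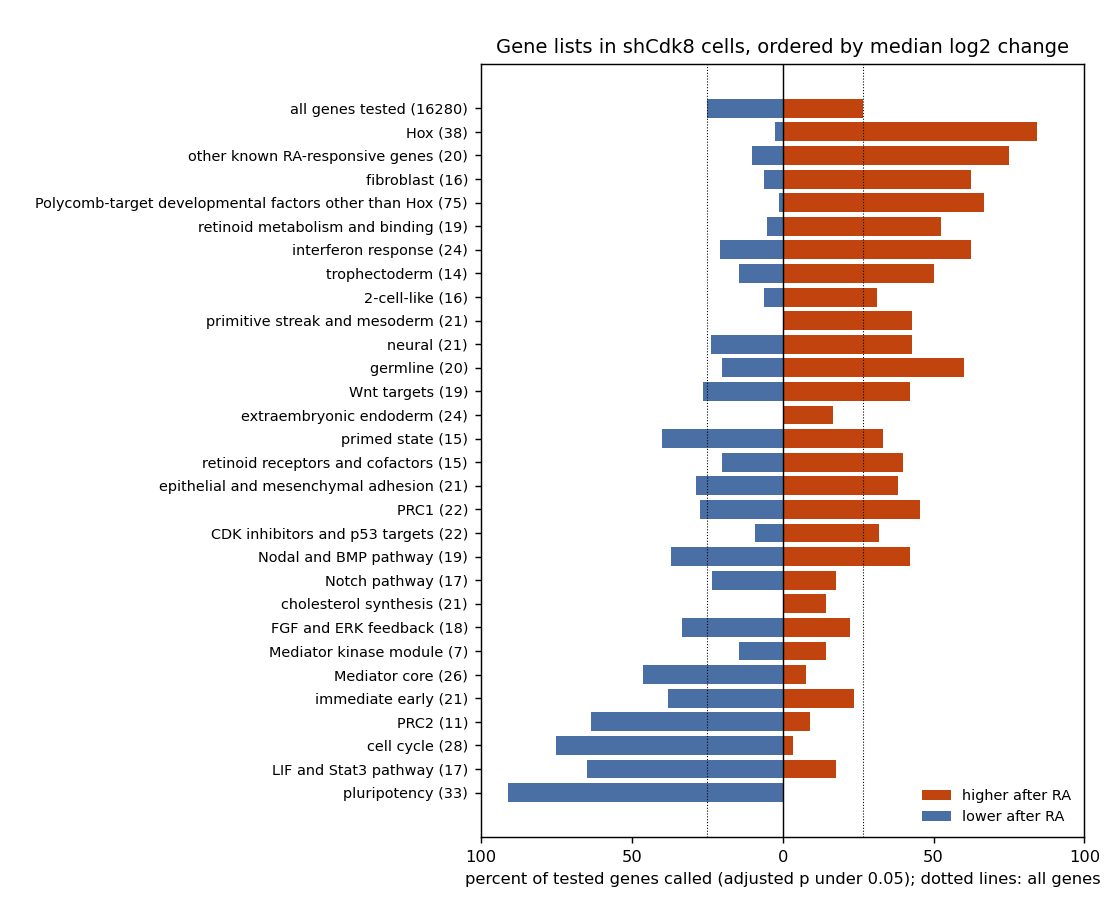
Percent of tested members of each gene list called higher (right) or lower (left) after RA in shCdk8 cells, with the number tested in brackets; lists are ordered by median log2 change and dotted lines mark all genes (26.7% and 25.1%). Hox and RA-responsive genes stand at the top, and cell cycle, LIF and pluripotency genes at the bottom.

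Changes in genes of the Polycomb complexes PRC1 and PRC2 and of Mediator were mostly under 2-fold, but not rarer than among genes at large. The shares called lower were 63.6% for PRC2, 27.3% for PRC1 and 46.2% for core Mediator, against 25.1% of all genes. Those called higher were 9.09%, 45.5% and 7.69%, against 26.7%. The kinase module, at 14.3% each way, was called less often. PRC2, which deposits the H3K27 methyl mark, fell in 7 of 11 members and rose in 1 (median -0.41). Eed, the mark-binding core subunit, went from 456, 419 and 392 CPM to 151, 152 and 150 CPM (log2 -1.49, SE 0.10, edgeR adjusted p = 1.1e-10), the other cores Suz12 and Ezh2 fell by 0.58 and 0.41, and the accessory members Jarid2 and Mtf2 by 0.64 and 0.53. PRC1, which ubiquitinates H2A, was split: 10 of 22 rose, led by Cbx8 (log2 2.89), and 6 fell, among them Phc1 (-1.54), L3mbtl2 (-1.09), Pcgf6 (-0.66) and Pcgf2 (-0.66). Of 26 core Mediator genes 12 fell, by less than 2-fold each, and 2 rose; Med14, the backbone subunit, rose by 0.81 while Med18 and Med19 fell by 0.80 and 0.51. In the kinase module, 1 of 7 rose (Med12l, from 8.23, 9.13 and 11.3 CPM to 19.8, 22.4 and 20.2 CPM, log2 1.12), Cdk8 was the 1 that fell, and Med12, Med13, Med13l, Ccnc and Cdk19 did not pass.

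Cell cycle genes fell in 21 of 28 cases and rose in 1 (median -0.42). The falls were mostly small: the replication helicase genes Mcm7 and Mcm3 fell by 0.69 and 0.63 and the kinase gene Cdk2 by 0.60, while the cyclin gene Ccnd1 fell from 73.3, 73.0 and 56.9 CPM to 19.4, 18.8 and 18.6 CPM (log2 -1.84). Of 22 CDK inhibitor and p53 target genes 7 rose (31.8%, against 26.7% of all genes), among them Cdkn2c (1.77), Cdkn2a (1.62) and Cdkn1c (1.03), and 2 fell. Adhesion genes rose in 8 of 21 cases and fell in 6: E-cadherin (Cdh1) fell by 0.64 and P-cadherin (Cdh3) by 1.82, and the repressor gene Zeb2 rose by 1.43. Germline genes rose in 12 of 20 cases and fell in 4, with the meiotic cohesin gene Rec8 at 2.25, Brdt at 1.75, Sycp2 at 1.52 and Sohlh2 at 1.03. Genes listed for the 2-cell-like state, a rare fluctuation of mESC cultures, rose in 5 of 16 cases (Dub1, 1.8) and fell in 1 (Eif1a, -1.13). The share that rose was 31.25%, against 26.7% of all genes. Eif1a had 53646 reads in the mESC libraries against 1659 for the next member, Tcstv1. Its fall is therefore not read as that of a 2-cell-like gene. Cholesterol synthesis genes rose in 3 of 21 cases (among them the sterol regulator Srebf1, 0.53) and fell in none.

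Interferon response genes rose in 15 of 24 cases and fell in 5 (median 1.11). Oasl2 went from 0.580, 0.575 and 0.578 CPM to 6.98, 7.60 and 7.58 CPM (log2 3.67, SE 0.34, edgeR adjusted p = 1.8e-08), and the RNA sensor Ifih1 (MDA5) rose by 3.68, the immunoproteasome subunit Psmb8 by 3.17 and the GTPase gene Gbp2 by 2.38. The related RNA sensor Ddx58 (RIG-I) moved the opposite way, from 106, 98.3 and 101 CPM to 25.6, 24.5 and 24.1 CPM (log2 -2.04, SE 0.12, edgeR adjusted p = 2.7e-11).

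The shNMC response, which shares no library with that of shCdk8, was set beside it to ask where the hairpin against Cdk8 alters the response. Same-numbered RA libraries of the 2 lines did vary together (residual correlations 0.475, 0.287 and 0.537). In shNMC cells 8363 genes were called (51.4%), 27.3% higher and 24.1% lower. Of the genes that rose in shCdk8 cells 3724 also rose in shNMC cells (85.8% of the first list and 83.9% of the second), and of those that fell 3351 also fell (82.1% and 85.4%). A single gene was called in opposite directions, Il17rd. The difference of the 2 responses, tested as an interaction term over all genes, was called for 6 genes (0.0369%), 5 higher (0.0307%) and 1 lower (0.00614%) in shCdk8 cells, with 493 at an unadjusted p under 0.05. The count depends on the fit: DESeq2 called 27, the fit with the replicate number as a block 11, and the fit to 18 libraries 67; leaving out single libraries gave 2 to 4 higher and 1 to 2 lower. An adjusted p that misses the threshold does not show that the responses are alike. The 95% interval of the difference lay within 1 log2 unit of 0 for 70.4% of genes tested, but for 25.9% of those that rose at least 2-fold and 53.3% of those that fell at least 2-fold.

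**Figure D4:**
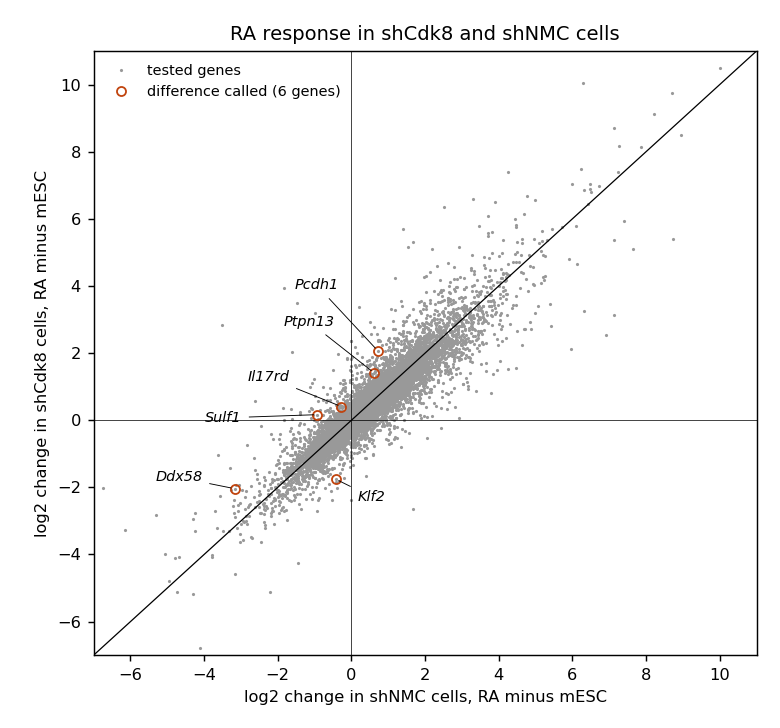
Log2 change with RA in shNMC cells (horizontal) and shCdk8 cells (vertical) for the 16280 genes tested; the diagonal marks equal change and open circles the 6 genes whose difference was called. Most genes lie along the diagonal, Klf2 lies below it and the other 5 lie above it.

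Klf2, which encodes a naive pluripotency factor, was the gene whose response was lower with shCdk8. It stood at 179, 154 and 143 CPM in shCdk8 mESCs and at 46.2, 42.5 and 52.4 CPM after RA, and in shNMC cells at 148, 197 and 140 CPM and at 131, 129 and 99.8 CPM. The mESC libraries of the lines overlap and the RA libraries do not (difference of log2 changes -1.32, 95% interval -1.73 to -0.91, edgeR adjusted p = 0.0058). Ddx58 fell less far with shCdk8. In shNMC cells it went from 76.1, 87.5 and 72.5 CPM to 8.70, 8.57 and 8.92 CPM, so that the shCdk8 libraries lay above all shNMC libraries in both states (difference 1.13, 0.78 to 1.48, edgeR adjusted p = 0.0058). Sulf1, a sulfatase that trims heparan sulfate and so tunes FGF and Wnt signals, was 77.9, 78.2 and 82.1 CPM before and 88.9, 93 and 85.3 CPM after RA with shCdk8, and did not pass there, but fell in shNMC cells from 67.3, 77.7 and 65.5 CPM to 39.7, 37.8 and 33.1 CPM. That difference was 1.09 (0.80 to 1.38, edgeR adjusted p = 0.0016). These 3 genes were called in all 20 alternatives of the difference.

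The other 3 were less secure. Pcdh1, a protocadherin, rose from 4.39, 4.26 and 5.38 CPM to 19.3, 21.7 and 18.2 CPM with shCdk8 and from 4.24, 3.23 and 4.89 CPM to 6.85, 7.17 and 6.18 CPM with shNMC (difference 1.36, 0.87 to 1.85, edgeR adjusted p = 0.035). Il17rd (Sef), a feedback inhibitor of FGF signalling, rose from 108, 117 and 116 CPM to 141, 165 and 145 CPM with shCdk8 and fell from 108, 125 and 104 CPM to 89.7, 97.9 and 90.8 CPM with shNMC (difference 0.68, 0.43 to 0.93, edgeR adjusted p = 0.041). Ptpn13, a tyrosine phosphatase, rose in both lines but started lower with shCdk8, at 34.6, 38.8 and 38.8 CPM against 56.8, 55.2 and 59.9 CPM, and ended higher, at 94.7, 106 and 97.4 CPM against 87.0, 88.5 and 88.0 CPM (difference 0.79, 0.50 to 1.09, edgeR adjusted p = 0.041). Pcdh1 was called in 9, Il17rd in 8 and Ptpn13 in 7 of the 20 alternatives, with adjusted p values up to 0.18, 0.20 and 0.20.

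**Figure D5:**
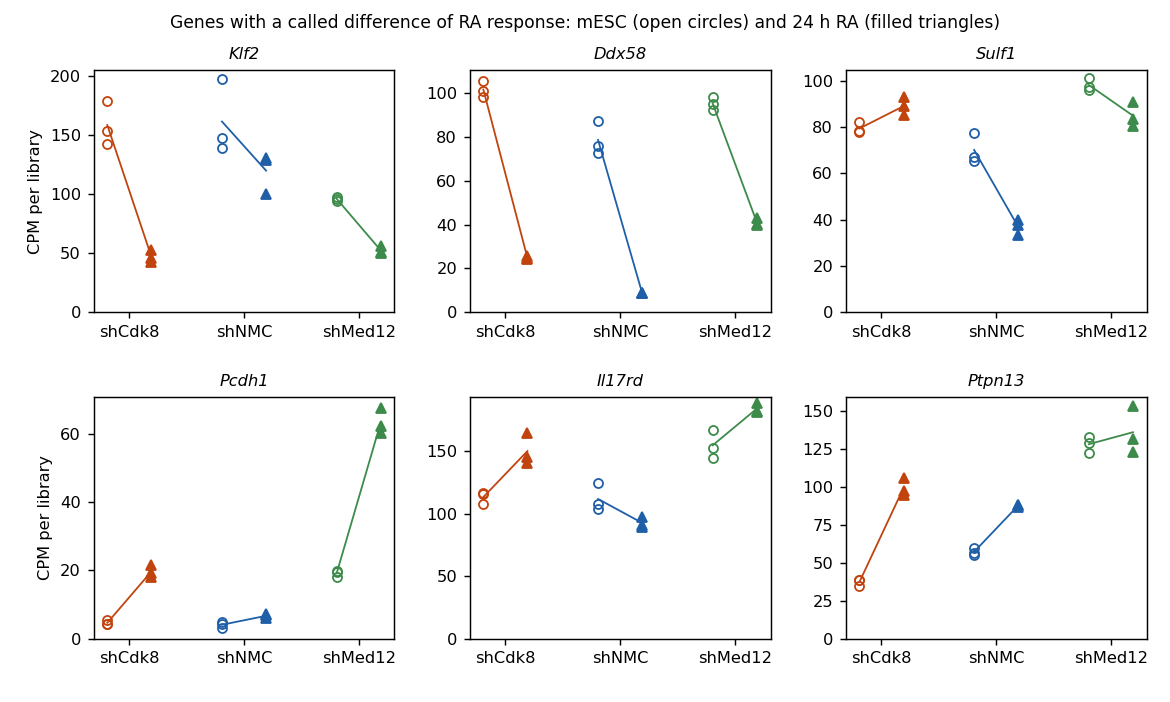
CPM in each library for the 6 genes whose RA response differed between shCdk8 and shNMC cells, with shMed12 cells beside them; open circles are mESC libraries, filled triangles RA libraries, and lines join the means. Klf2 falls more with shCdk8 than with shNMC, Ddx58 falls less, and Sulf1 and Il17rd end higher than they began with shCdk8 and lower with shNMC.

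Within the gene lists, few differences from shNMC were called, and uncalled ones included values larger than those of called genes, with wider intervals. Over all genes tested, 7547 of 16280 differences were above 0. All 12 tested Hox genes of groups 1 to 4 had a larger log2 change with shCdk8, as did 9 of 11 in groups 5 to 8 and 3 of 15 in groups 9 to 13. None of the 38 was called (Hoxa4, difference 1.31, SE 0.41, edgeR adjusted p = 0.89). Some of these differences rest on few mESC reads (Hoxb2, 4 with shCdk8 and 7 with shNMC, and Hoxb3, 6 and 14). The genes share the same libraries, so their signs are not independent. Of 33 pluripotency genes 25 had a difference below 0 (median -0.23), against 53.6% of all genes. Klf2 was the one called, and Nanog (-0.71, SE 0.24), Zfp42 (-0.71, SE 0.16) and Fgf4 (-1.06, SE 0.20) had edgeR adjusted p of 1.0, 0.25 and 0.067. Fgf4 passed in 8 of 20 alternatives, as often as Il17rd, among them the fit with the replicate number as a block (edgeR adjusted p = 0.037), and Zfp42 passed in 2, with DESeq2 and with 18 libraries. Stmn2, of the neural list, had a difference of -0.88 (edgeR adjusted p = 0.053) and passed in 7 of 20. Crabp2 had a difference of 1.30 (SE 0.40) and Lrat of 1.0 (SE 0.27), with edgeR adjusted p of 0.89 and 0.45. In the FGF and ERK list 14 of 18 differences were above 0, with Spry2 at 0.60 (edgeR adjusted p = 0.11, passing in 3 of 20 alternatives). In the cholesterol list 20 of 21 were above 0, none of them called.

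Against shMed12 cells, in which another member of the kinase module is targeted, many more genes differed. The shMed12 response had 6044 calls (37.1%), and its difference from that of shCdk8 was called for 807 genes (4.96%), 511 higher (3.14%) and 296 lower (1.82%) in shCdk8 cells, with 2944 at an unadjusted p under 0.05. The count depends on the fit and on single libraries: the compared libraries alone gave 1570 higher and 880 lower. Higher calls numbered 286 without RA shCdk8 replicate 2, 328 without RA shMed12 replicate 2, and 320 and 332 without mESC shMed12 replicates 1 and 2. Lower calls numbered 138 to 184 without any 1 of 9 of the 12 libraries, the exceptions being RA shCdk8 replicate 3 and replicate 3 of both shMed12 groups (218 to 236). This comparison uses the same shCdk8 libraries as the one above. For 189 of the 807 genes the lines did not overlap in mESCs alone, for 127 after RA alone, and for 490 in both states (14.9%, 19.2% and 40.9% of all genes tested). Cyp26a1 is an instance of the first: with shMed12 it stood at 5.26, 5.18 and 2.22 CPM in mESCs and at 283, 275 and 265 CPM after RA, a level that overlaps that of shCdk8 (difference of log2 changes 2.10, 95% interval 1.27 to 2.94, edgeR adjusted p = 0.0028). Zfp703 also started higher with shMed12, at 3.74, 3.44 and 2.44 CPM, but its RA libraries did not overlap those of shCdk8 either (difference 3.30, SE 0.42, edgeR adjusted p = 6.3e-05), and Ccrl1 started at 1.68, 1.74 and 1.43 CPM and overlapped after RA (4.0, SE 0.44, edgeR adjusted p = 1.2e-05). Rarb and Stra8 differed the other way, from lower starts with shMed12. Stra8 stood there at 6.62, 6.00 and 10.6 CPM in mESCs and at 352, 333 and 409 CPM after RA (difference -1.92, SE 0.26, edgeR adjusted p = 1.5e-04), and the difference for Rarb was -1.5 (SE 0.30).

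Other members of the RA program also differed from shMed12. Lrat reached 4.73, 5.38 and 4.68 CPM with shCdk8 but 1.97, 1.5 and 1.99 CPM with shMed12 (difference 2.06, SE 0.27, edgeR adjusted p = 8.3e-05). Cyp1b1, a P450 that can make RA from retinol, reached 15.7, 16.7 and 6.09 CPM with shCdk8 and 8.86, 8.66 and 10.2 CPM with shMed12, from starts of 0.276, 0.170 and 0.253 CPM against 4.75, 4.59 and 4.45 CPM (difference 4.77, SE 0.54, edgeR adjusted p = 1.8e-05). Of 38 Hox genes 32 had a difference above 0, against 7675 of the 16280 genes tested. Of the 38, 2 were called, near the share of all genes called (4.96%), among them Hoxb4 (difference 2.0, SE 0.47, edgeR adjusted p = 0.014). Without mESC shMed12 replicate 1 the difference of Hoxb4 was 1.66 and did not pass (edgeR adjusted p = 0.09). T fell with shMed12, from 18, 17.4 and 3.32 CPM to 3.41, 3.53 and 1.43 CPM (difference 3.45, SE 0.62, edgeR adjusted p = 0.0017). Gabrp, a GABA receptor subunit gene, fell with shCdk8 from 0.497, 0.404 and 0.397 CPM to 0.165, 0.185 and 0.118 CPM and rose with shMed12 from 0.369, 0.282 and 0.403 CPM to 8.47, 7.97 and 5.4 CPM (difference -5.78, SE 0.47, edgeR adjusted p = 4.1e-07). Tcfeb, a lysosomal regulator, fell from 29.4, 30.8 and 31.3 CPM to 4.22, 4.93 and 5.96 CPM with shCdk8 but held between 13.3 and 17.0 CPM with shMed12 in both states (difference -2.49, SE 0.26, edgeR adjusted p = 9.5e-06). Cdx1 (-1.47), Fgf17 (-2.33) and the tau gene Mapt (-2.05) also had lower responses with shCdk8, and Csn3 (3.44) a higher one. Of the 6 genes that differed from shNMC, Klf2 (-0.88), Ddx58 (-0.82) and Ptpn13 (1.32) also differed from shMed12, Ddx58 in the opposite direction.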

How the data were processed

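Poly-A RNA was sequenced as strand-specific 50 bp reads, per the labels' protocols. Each of 24 deposited files holds unscaled read counts for 22609 genes, named by symbol. The submitters' processing notes list HTSeq 0.6.1p1, STAR 2.3.1z13, DESeq2 1.6.3, bcl2fastq 1.8.4 and SAMtools 1.2, and build mm9, without roles. The annotation and strand setting were not given in the sources used here. Of the 5 entries that name no gene, all left out, multiple alignments made 44.1% to 49.1% of all counts in the 18 libraries of the 3 lines compared and 20.0% to 21.7% in the other 6. Counts of gene families with near-identical copies are therefore uncertain.

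Counts were fitted with edgeR 4.0.16 in R 4.3.3: filterByExpr, TMM scaling, robust quasi-likelihood F tests, two-sided, on 1 mean per group over 24 libraries (16 residual degrees of freedom, common biological coefficient of variation 0.145), with Benjamini-Hochberg adjusted p under 0.05 called over 16280 genes. SEs come from the size of the log2 change over the root of F. CPM use TMM-scaled libraries. Counting intervals are 95% and cover counting error only. Scripts were tested on simulated data. Same-numbered RA and mESC shCdk8 libraries had residual correlations of 0.358, 0.169 and 0.371, and in shNMC cells they were -0.0604, 0.120 and 0.259. Between shCdk8 and shNMC they were 0.475, 0.287 and 0.537 for RA libraries and -0.0528, 0.163 and 0.354 for mESC libraries. The numbers thus go with variation shared across lines and not only within shCdk8 cells. The main fit does not use them. Any pairing by number is read from the data, not from the labels.

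Genes were named by rule: the 12 largest rises and falls at 5 CPM or more whose libraries do not overlap, the 5 members of each list with the lowest p, all members of the retinoid, Hox, LIF and kinase-module lists, the 10 largest called differences, and 15 reference genes. Unnamed gene models, histone genes and pseudogenes were left out. Tbx3, Lin28a, Pecam1, Dcn, Lum, Fap, Postn, S100a4, Prl3d1, Prl2c2 and Tpbpa fall outside the rule and were chosen after their values were seen. Some members of the lists are counted but not reported by name here. The members, lists and tests were chosen with earlier results of these data known. Alternatives were DESeq2 1.42.0, median-ratio scaling, other filters, fits to the compared libraries, a replicate block and each library left out; a fit to 18 libraries and one without RA replicate 3 of both lines were added after the data were seen.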

Additional observations from a re-analysis of the deposited data

Results flagged for a closer look

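The RA response differed between lines by a test of the difference itself, an interaction term in edgeR's quasi-likelihood fit (log2 change in shCdk8 cells minus that in the other line, 3 libraries per group). Against shNMC cells 6 genes were called: Klf2 at -1.32, Ddx58 at 1.13, Sulf1 at 1.09, Pcdh1 at 1.36, Il17rd at 0.68 and Ptpn13 at 0.79. Klf2, Ddx58 and Sulf1 were called in all 20 alternatives, with adjusted p up to 0.043, 0.036 and 0.011.

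Against shMed12 cells 807 genes were called. Higher in shCdk8 cells were Cyp1b1 at 4.77, Ccrl1 at 4.0, T at 3.45, Csn3 at 3.44, Zfp703 at 3.30, Cyp26a1 at 2.10, Lrat at 2.06, Hoxb4 at 2.0 and Ptpn13 at 1.32. Lower were Gabrp at -5.78, Tcfeb at -2.49, Fgf17 at -2.33, Mapt at -2.05, Stra8 at -1.92, Rarb at -1.50, Cdx1 at -1.47, Klf2 at -0.88 and Ddx58 at -0.82. The call of Hoxb4 was lost without mESC shMed12 replicate 1 (1.66, edgeR adjusted p = 0.09). For genes such as Cyp26a1, Ccrl1, Cyp1b1, T and Klf2 the levels after RA overlap and the mESC levels do not.

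Groups of 3 libraries were not searched for outlying samples.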

How the results depend on the processing

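Counts of genes that rose or fell with RA stayed within 1.5 times of the reported ones in all 3 lines under every alternative run (3811 to 5421 rises and 3386 to 4897 falls in shCdk8 cells). In the shCdk8 response no change of scaling, filter, tool or set of groups, and no replicate block, moved the median of all genes by more than 0.035 (log2). That shift was not computed for fits with single libraries left out. No gene named with a value changed direction. Of 156 genes followed in the RA response of shCdk8 cells, 147 kept their call throughout; Cdk8, Lrp2, T, Ncoa3, Rdh14 and Rxrb lost it in some alternatives, and Gata4, Gata6 and Sulf1 gained one.

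Counts of differences between lines were less stable; the cause was not tested. Against shNMC (5 higher and 1 lower), DESeq2 called 18 and 9, a fit to the compared libraries alone 23 and 15, and the fit to 18 libraries 39 and 28. No filter, or a minimum of 1 CPM in 3 libraries, gave 3 lower. With the replicate number as a block, which gives same-numbered libraries of all groups a shared term, 8 were higher and 3 lower. Beyond Fgf4 the block changed no call of a gene followed. Leaving out single libraries gave 2 to 4 higher and 1 to 2 lower, and leaving out RA replicate 3 of both lines 2 and 2. Against shMed12 (511 and 296), the compared libraries alone gave 1570 and 880, the 18 libraries 1466 and 1145, DESeq2 763 and 485, and the replicate block 654 and 392; leaving out single libraries gave 286 to 553 higher and 138 to 236 lower.

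Depth limits genes with few reads, such as Aldh1a1, Hoxb5 and Arg1 in mESCs, whose folds carry wide counting intervals.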
